A study of Mus musculus with 2 samples.

Results

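The genes described here are 9 regulators of interferon and cytokine signalling: the STAT genes Stat2 and Stat3, the interferon regulatory factor genes Irf1, Irf5, Irf7, Irf8 and Irf9, and the SOCS genes Socs1 and Socs3. They were chosen by name, and each was represented by the probe set that carries only its symbol and had the highest mean level over both arrays. Of the 9, 8 had such a probe set, among 22184 genes named in this way. Irf5 was listed only on a probe set that also names Tnpo3, a nuclear import gene that overlaps it, so no level of Irf5 is given. That shared probe set read 5.82 in WT and 5.97 in Nlrp6-/- on the log2 scale.

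RNA came from Ly6C-high inflammatory monocytes, which were CD11b+ and negative for CD3 and Ly6G, from the lamina propria of the colon. One group was WT C57BL/6 mice and the other was C57BL/6 mice without Nlrp6, an innate immune sensor of the NOD-like receptor family. Both groups received the carcinogen azoxymethane (AOM) at 10 mg/kg and 5 days of 2% dextran sodium sulfate (DSS), an agent that injures the gut lining, started on day 5, and cells were taken on day 10. There was no group without AOM and DSS. Each genotype had 1 Affymetrix Mouse Gene 2.1 ST array. How the Nlrp6 allele was made and how many mice gave each RNA are not given in the sources used here. Because a genotype had 1 array, no error and no p-value can be attached to any difference, and each value below describes these 2 arrays only. In such a bulk sample, fewer cells of a type and less RNA per cell cannot be told apart.

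Type I interferons act on a receptor whose Janus kinases phosphorylate STAT2. With IRF9 it works in ISGF3, a complex that binds the interferon-stimulated response element (ISRE) and switches on antiviral genes, IRF7 among them, and IRF7 in turn amplifies the interferon genes. Interferon-gamma instead acts through the gamma-activated site (GAS) and induces IRF1. STAT3 carries signals of IL-6 and IL-10, SOCS1 and SOCS3 are feedback inhibitors of the kinases and receptors, IRF8 is a lineage factor of monocytes, and IRF5 works downstream of Toll-like receptors.

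The short sequences below show where these response elements lie before the start of the regulator genes, because Stat2 and Socs1 hold an ISRE letter pattern there and Irf1, Irf8 and Socs3 a GAS pattern. Sequences are from RefSeq, build GRCm38.p6, which held 1 or more starts for 9 of 9 genes. Each start has 250 bases before it and 50 after. Both strands were searched for GAAANNGAAA (ISRE) and for TTCNNNGAA (GAS), whose letters read the same on both strands. Each line gives 30 bases, 5′ to 3′ on the gene's strand, with the matched letters in capitals.
Stat2, ISRE, chr10:128270266-128270295, plus strand: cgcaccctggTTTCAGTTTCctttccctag
Socs1, ISRE, chr16:10785597-10785626, minus strand: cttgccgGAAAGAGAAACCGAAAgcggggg
Irf1, GAS, chr11:53769913-53769942, plus strand: aacagcctgatTTCCCCGAAatgatgaggc
Irf8, GAS, chr8:120736185-120736214, plus strand: atTTCTCGGAAagagagcgcTTCAGAGAAg
Socs3, GAS, chr11:117969502-117969531, minus strand: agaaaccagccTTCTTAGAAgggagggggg

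The Stat2 match ran from 222 to 213 bases before the start. Socs1 held 2 overlapping ISRE matches from 83 to 68 bases before its start, and Irf8 held 2 GAS matches between 171 and 145 bases before 1 of its 2 listed starts. The Irf1 match lay 90 to 82 bases before 1 of its 2 starts, and the Socs3 match 154 to 146 before its only one. The windows of the second starts of Irf1 and Irf8 held neither pattern. Of all 32851 promoter windows in the table, 3.44% held the ISRE letters and 8.30% the GAS letters. Stat3, Irf5, Irf7 and Irf9 had neither pattern in these windows. A match is a letter pattern and not a measured binding site, and an absent one says only that these letters are not in the window.

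Stat2, Irf7 and Irf9 stood together on the high side in Nlrp6-/- monocytes, at 1.63 to 1.72 times their WT level. The other 5 measured members lay within 1.5-fold. No member was at least 2-fold apart, a size that 1.62% of detected genes reached upward and 0.325% downward. At the 1.5-fold threshold, 3 of 8 members were higher and 0 were lower, against 6.21% higher and 3.05% lower among the 9528 genes detected. A gene counted as detected when 1 array or both exceeded a background floor, the 95th percentile of 1401 olfactory and vomeronasal receptor probe sets, which was 3.26 in WT and 3.22 in Nlrp6-/-. All 8 members exceeded it on both arrays.

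**Figure D1:**
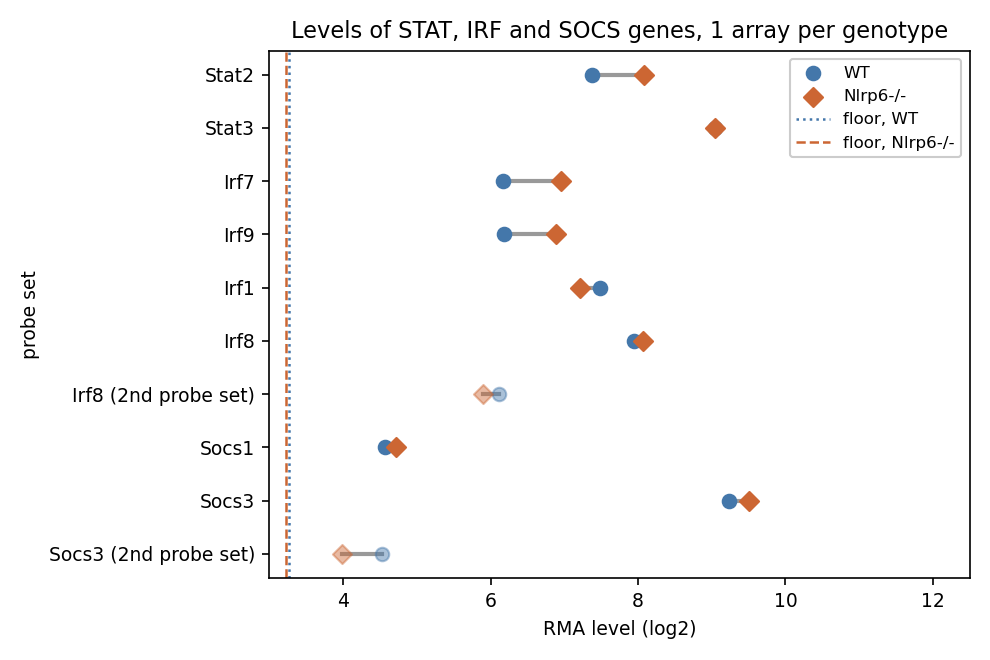
RMA level (log2, horizontal axis) of each probe set of the 8 measured genes on the WT array (circles) and the Nlrp6-/- array (diamonds), with the detection floors as vertical lines; faded symbols are second probe sets that were not used. Stat2, Irf7 and Irf9 have wide gaps to the right, and the second probe set of Socs3 runs the opposite way to the one that was used.

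Stat2, the STAT protein of the type I interferon complex, was at 7.37 on the WT array and 8.08 on the Nlrp6-/- array, a difference of 0.71 on the log2 scale. Its DNA-binding partner Irf9 was at 6.18 on the WT array and 6.89 on the Nlrp6-/- array, a difference of 0.70. Irf7, the factor that amplifies interferon-alpha genes, was at 6.17 on the WT array and 6.95 on the Nlrp6-/- array, a difference of 0.78. The differences of these 3 genes spanned 0.08, and the nearest other member, Socs3, was 0.41 below the lowest of them. Of the 9528 genes, 3.56% had a difference as high as that of Irf7 or higher, 4.33% as high as that of Stat2 and 4.46% as high as that of Irf9. Stat2, Irf7 and Irf9 were each measured by 1 probe set, so none of them had a second reading. Stat2 overlaps Apof in the RefSeq annotation, and Apof was below the floor on both arrays.

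Stat3, the STAT protein used by IL-6 and IL-10, was at 9.05 in WT and 9.04 in Nlrp6-/-. Its difference of -0.01 was the one nearest to 0 among the members, with 52.8% of all detected genes at or above it. Stat2 and Stat3 were thus 1.64-fold higher and 1.01-fold lower in Nlrp6-/-.

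Irf1, which interferon-gamma induces, was at 7.48 on the WT array and 7.21 on the Nlrp6-/- array, a difference of -0.27. It was the lowest of the members, and 18.3% of all detected genes had a difference as low or lower. Irf8, the monocyte lineage factor, was at 7.94 on the WT array and 8.07 on the Nlrp6-/- array, a difference of 0.12. A second Irf8 probe set read 6.12 and 5.90, a difference of -0.22, so its probe sets did not share a direction. Among the IRF genes Irf7 and Irf9 were thus past 1.5-fold upward, Irf1 was slightly below its WT level, and Irf8 had no settled direction.

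Socs1, a kinase inhibitor that interferons induce, was at 4.57 on the WT array and 4.72 on the Nlrp6-/- array, a difference of 0.15. With the floor set at the 99th percentile of the same receptor probe sets, 5.08 in WT and 4.90 in Nlrp6-/-, Socs1 was below it on both arrays. Socs3, the inhibitor that binds the IL-6 receptor chain gp130, was at 9.23 on the WT array and 9.51 on the Nlrp6-/- array, a difference of 0.29. A second Socs3 probe set read 4.53 and 3.98, a difference of -0.56, which put the probe sets 0.84 apart and in opposite directions. Neither inhibitor reached 1.5-fold in the probe set that was used.

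**Figure D2:**
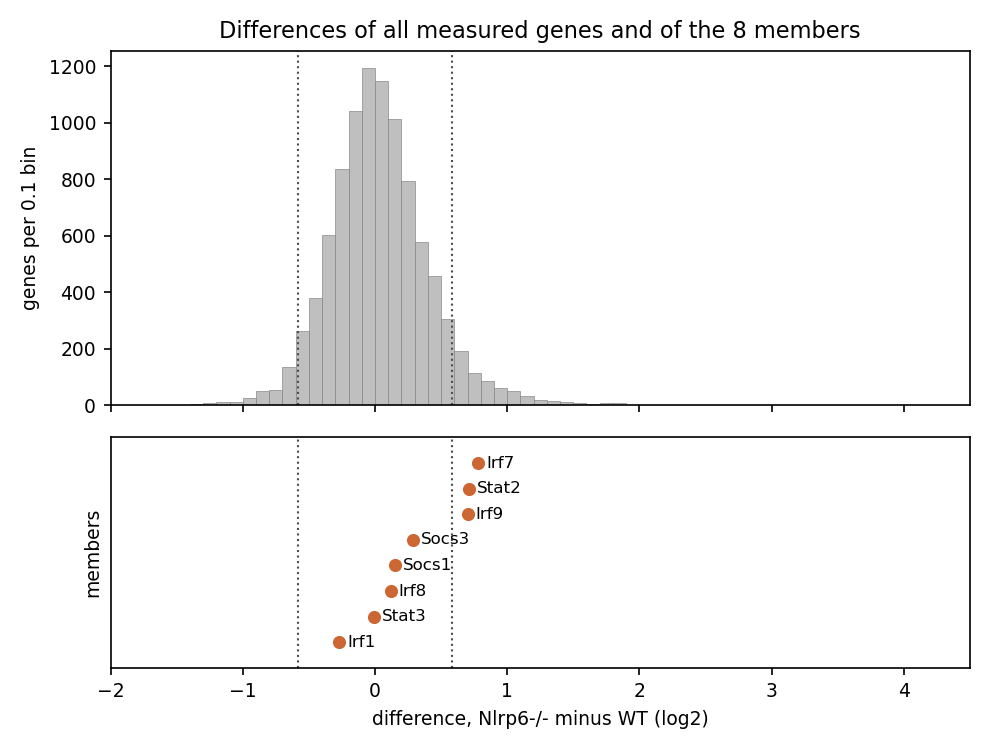
Upper panel: number of genes (vertical axis) per 0.1 step of the log2 difference between Nlrp6-/- and WT (horizontal axis), over the 9528 detected genes. Lower panel: the 8 measured members on the same axis, with dotted lines at 1.5-fold; Irf7, Stat2 and Irf9 lie past the right line and the other 5 between the lines.

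Over the 8 members the median difference was 0.22, with 6 above and 2 below their WT level. Irf8 and Socs3 were among the 6 only by the probe set that was used. With the mean of their probe sets Irf8 was at -0.05 and Socs3 at -0.13, and the median of the members was 0.07. Over all 9528 genes the median was 0.01, with 51.6% above their WT level, and the 5th and 95th percentiles were -0.53 and 0.68. Stat2, Irf7 and Irf9 were therefore each beyond the 95th percentile of all genes. The silent receptor genes had an SD of 0.19 in their differences. For 422 genes read by more than 1 probe set above both floors, the readings disagreed by a median of 0.31 and by 0.79 at the 90th percentile, a size close to the difference of Irf7.

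Genes with the nearest pair of levels were sought by Euclidean distance over both arrays among genes above both floors. For Irf7 they were Ifi27, Tctex1d2 and Anapc5, at distances of 0.034, 0.050 and 0.065. Ifi27, an interferon-inducible gene, was at 6.14 in WT and 6.93 in Nlrp6-/-. For Irf1 they were Gsk3b (0.004), Lrrfip2 (0.009) and Wasf2 (0.015). Only 2 levels enter this likeness.

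None of the detected relatives in these 3 families was 1.5-fold higher in Nlrp6-/-. Of the 4 other STAT genes measured, 0 were at least 1.5-fold higher and 1 was lower, against 6.21% and 3.05% of all detected genes. That gene was Stat5b, used by GM-CSF and other growth factors. It was at 6.21 on the WT array and 5.60 on the Nlrp6-/- array, a difference of -0.61. Its close paralog Stat5a differed by -0.16, Stat4 by 0.04 and Stat6, the IL-4 mediator, by 0.15. Of the 3 other IRF genes, none reached 1.5-fold. Irf3, the factor that starts interferon-beta transcription, was at 5.84 and 5.42, a difference of -0.41, Irf2 differed by -0.01 and Irf4 by -0.08.

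Of 6 other SOCS genes, 5 were detected and none reached 1.5-fold. Cish, a STAT5-induced inhibitor, read 7.55 in WT and 8.02 in Nlrp6-/-, while Socs2 read 3.66 and 4.13, each 0.47 higher. Socs4 differed by -0.18 and Socs7 by 0.01. Socs5 was above the floor in WT only and was at least 1.21-fold lower, and Socs6 was below the floor on both arrays. Among 11 other brakes on JAK-STAT signalling, 1 was at least 1.5-fold higher, against 6.21% of all detected genes. This was Usp18, the ISG15 protease that also blocks the type I interferon receptor, at 5.84 in WT and 7.68 in Nlrp6-/-. The phosphatases Ptpn1 and Ptpn2 differed by -0.44 and 0.30, and the STAT3 inhibitor Pias3 by -0.40. The median of these 11 was -0.08.

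**Figure D3:**
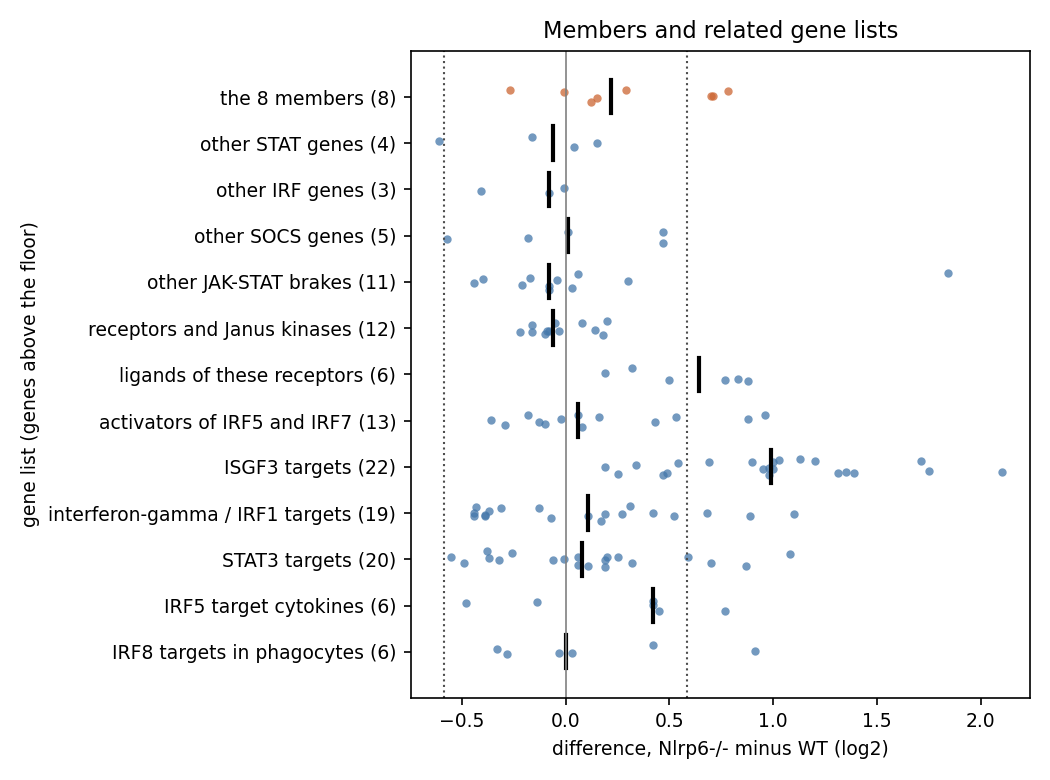
Log2 difference between Nlrp6-/- and WT (horizontal axis) of each detected gene in the members and in 12 related lists, with the number of genes in brackets, a black bar at each median and dotted lines at 1.5-fold. The ISGF3 targets lie furthest to the right, with a median of 0.99, and the receptors and Janus kinases lie from -0.22 to 0.20. Genes above the floor on 1 array only are drawn at their plain difference. Tlr3 is thus drawn past the right line at 0.88, though its bound is 0.31 and it is not counted as 1.5-fold higher.

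Upstream of the members, receptors and Janus kinases showed no difference of 1.5-fold in either direction. The 12 measured genes ranged from -0.22 to 0.20 with a median of -0.06. Ifnar1, a chain of the type I interferon receptor, differed by 0.20 and Ifngr1, of the interferon-gamma receptor, by 0.18. Il6st, which encodes gp130, differed by -0.16 and Il10rb by -0.22. Ligands of these receptors had a median of 0.64 over 6 measured genes, with 3 at least 1.5-fold higher and 0 lower. These were Csf3, the neutrophil growth factor G-CSF (0.88), Il27, a cytokine that signals through STAT3 among others (0.83), and Il6 (0.77). Among all detected genes 6.21% were at least 1.5-fold higher. Lif, another gp130 cytokine, was at 4.09 and 4.58. Csf3 was at 3.87 in WT and 4.75 in Nlrp6-/-. Csf3 and Lif were both below the stricter floor of the 99th percentile on both arrays. The interferon genes Ifnb1 and Ifng were below the floor on both arrays, as was the receptor gene Il27ra.

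Of 13 measured activators of IRF5 and IRF7, 1 (7.69%) was at least 1.5-fold higher and 0 lower, with a median of 0.06. Over all detected genes 6.21% were higher and 3.05% lower by this size, so the count was near that share. Tlr7, the endosomal sensor of single-stranded RNA, was at 6.15 on the WT array and 7.10 on the Nlrp6-/- array, a difference of 0.96. Its adaptor Myd88 was at 6.65 and 7.18, a difference of 0.53. Sting1, the adaptor of cytosolic DNA sensing, differed by 0.43 and Tlr4, the lipopolysaccharide receptor, by -0.36.

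Downstream, the targets of ISGF3 were higher in Nlrp6-/- as a list. All 22 measured genes lay above their WT level, 16 reached 1.5-fold and 10 reached 2-fold, with a median of 0.99 against 0.01 over all genes. The nucleotide kinase Cmpk2 differed by 2.10, the antiviral Ifit1 by 1.75, and the GTPases Mx2 and Mx1 by 1.71 and 1.39. This list was chosen with that shift already known, so it is no independent support for the values of Stat2, Irf9 and Irf7. The differences of these 3 regulators, 0.70 to 0.78, were smaller than the median of the list, and the gap was not tested.

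Targets of interferon-gamma and IRF1 were divided. Of 19 measured genes 10 were above and 9 below their WT level, and the median was 0.11. In this list 3 were at least 1.5-fold higher and 0 lower, against 6.21% and 3.05% of all detected genes. The 3 were the chemokine gene Cxcl10 (1.10), which type I interferon also induces, and the immunity-related GTPases Irgm2 (0.89) and Igtp (0.68). Irgm1 was at 7.24 and 7.76. On the low side were the checkpoint ligand gene Cd274 and the class II transactivator Ciita, each with a difference of -0.44.

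Targets of STAT3 had a median of 0.08 over 20 genes. Of these, 4 were at least 1.5-fold higher and 0 lower, against 6.21% and 3.05% of all detected genes. The 4 were Timp1, an inhibitor of metalloproteinases (1.08), the siderophore-binding Lcn2 (0.87), Lrg1 (0.70) and Myc (0.59). Of the 20, 12 were above and 8 below their WT level. On the low side, Bcl6, a transcriptional repressor, read 8.37 in WT and 7.82 in Nlrp6-/-. Pim1 differed by -0.49, Il4ra by -0.38 and Bcl3, at 9.26 and 8.90, by -0.37. Of 6 cytokines that IRF5 is known to induce, Il6 was past 1.5-fold, Il12a differed by 0.45, Il23a by 0.42 and Tnf by -0.48. Among 6 targets of IRF8 in phagocytes, the median was 0.00, with Il18 at 0.91, Il12b at 0.42, Cybb, the catalytic subunit of the phagocyte oxidase, at -0.33 and Ctsc at -0.28.

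Irf7 and Nlrp6 lie on the same stretch of chromosome 7. In the order of GRCm38.p6, 26 annotated genes separate them, of which 17 had a probe set of their own and 11 were detected. Among these 11, 2 passed 1.5-fold upward and 0 downward, against 6.21% and 3.05% of all 9528 detected genes. The 2 were Ifitm5, at 4.75 in WT and 5.69 in Nlrp6-/-, and Ifitm6, at 5.57 and 6.42. Both belong to the Ifitm family of transmembrane proteins, several of which interferon induces, and Ifitm1, Ifitm3 and Ifitm2 in the same cluster differed by 0.29, 0.16 and 0.08. The 6 other genes between Nlrp6 and Irf7 ranged from -0.21 to 0.36. The lowest of them, Pkp3, was above the floor in WT only, and its bound was -0.08. Past Irf7, the 4 measured genes among the next 10 ranged from -0.40 to 0.19. Ric8a, on the far side of Nlrp6, was at 4.80 and 4.18 and is named here because it was seen to pass 1.5-fold on the low side. For Irf7, an effect of the altered Nlrp6 locus on its surroundings and an effect of losing Nlrp6 cannot be told apart with these groups. Stat2 and Irf9 are on chromosomes 10 and 14, and what their differences mean for that of Irf7 was not tested.

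**Figure D4:**
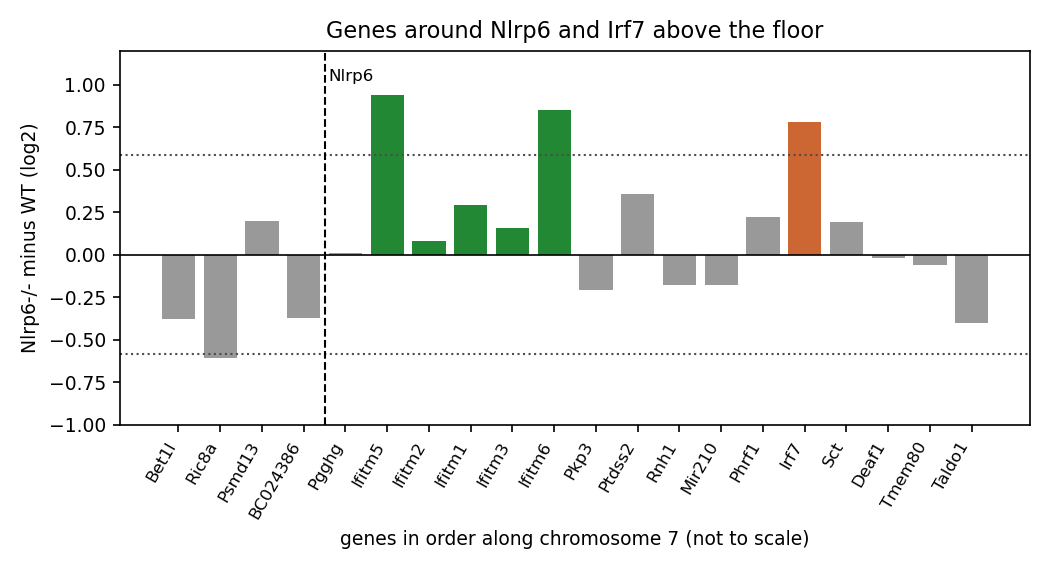
Log2 difference between Nlrp6-/- and WT (vertical axis) of the detected genes, in their order along chromosome 7 and not to scale, from 10 genes before Nlrp6 (dashed line) to 10 genes after Irf7 (orange), with Ifitm genes in green and dotted lines at 1.5-fold. Ifitm5, Ifitm6 and Irf7 pass the upper line and Ric8a the lower, while the genes between Ifitm6 and Irf7 stay within it.

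Marker genes described the cells behind these levels. All 13 matched monocyte markers were above the floor, with a median difference of -0.08 and 1 of them past 1.5-fold, F13a1, a coagulation factor subunit, at 5.38 in WT and 6.44 in Nlrp6-/- (1.06). Ly6c2, of the antigen used in the sort, was at 9.06 in WT and 9.36 in Nlrp6-/-. The summed linear level of the 13 monocyte markers was 8479 in WT and 7928 in Nlrp6-/-. Dendritic cells are known for high Irf7 or Irf8. Of 7 plasmacytoid dendritic cell markers 3 were below the floor on both arrays, the defining Siglech among them, 1 of the other 4 was at least 1.5-fold higher (Ly6d, 0.61), and their summed linear level was 170 in WT and 188 in Nlrp6-/-. Of 7 conventional dendritic cell markers 5 were below the floor on both arrays (Flt3, Zbtb46, Xcr1, Itgae and Batf3), 0 reached 1.5-fold, and the sums were 103 and 93.4. Markers of other cells were higher beside Stat2, Irf7 and Irf9. The sum was 329 in WT and 755 in Nlrp6-/- for 14 epithelial markers, of which 9 were at least 1.5-fold higher. It was 806 and 1431 for 9 B and plasma cell markers (4 higher), 669 and 1238 for 10 stromal and endothelial markers (3 higher), 503 and 695 for 9 neutrophil markers (3 higher), and 87.5 and 120 for 8 T and NK cell markers (1 higher). Among all 9528 detected genes, 6.21% were at least 1.5-fold higher. Jchain, at 9.22 in WT and 10.09 in Nlrp6-/-, had the highest level of the B and plasma cell markers. The sums include markers below the floor on both arrays. These were 1 epithelial, 2 B and plasma cell, 1 stromal and endothelial, 3 neutrophil and 3 T and NK cell markers. The part of these other cells in the levels of the regulators was not tested. Nlrp6 itself read 2.32 in WT and 2.67 in Nlrp6-/-, below both floors, so its probe set gave no check of the labels.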

How the data were processed

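The deposited table holds log2 levels that the authors computed by robust multiarray average (RMA) with the oligo package in R 2.15.1, per the labels' protocols. RMA subtracts background, gives both arrays the same distribution and combines the probes of a set, so a shift of all transcripts cannot be seen. Medians over 41345 probe sets were 2.87 in WT and 2.84 in Nlrp6-/-. The sources used here do not say which arrays were normalized together. Genes were named from the platform annotation, and probe sets with several symbols were not used for a gene. Differences are Nlrp6-/- minus WT. Where only 1 array exceeded the floor, the difference is a bound, taken against the other array's floor or own value, whichever was higher. No test was possible with 1 array per genotype, which limits the precision.

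The members, the 12 related lists, the 8 marker lists and the rules were chosen with earlier results of these data known. All members were named, with up to 4 genes per list by size of difference, every other STAT, IRF and SOCS gene above the floor, 3 nearest genes for the highest and the lowest member, and genes between Nlrp6 and Irf7 past 1.5-fold. The text also names, with their values already seen, Bcl6, Pim1, Il4ra, Bcl3, Cd274, Ciita, Tlr3, Pkp3, Apof, Ric8a and the other Ifitm genes. Alternatives were a second quantile normalization, removal of the median difference or of a loess curve (span 0.3), another floor or none, other uses of several probe sets, a 3-fold threshold and the mean of the members. The code that makes the calls was tested on simulated data with known changes, which checks the code and gives no error for these arrays. Work was done in Python 3.11.15 with pandas 2.3.3 and statsmodels 0.14.6.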

Additional observations from a re-analysis of the deposited data

How the results depend on the processing

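A value was taken to have moved when it differed from the reported one by more than 0.19, the SD of the silent receptor genes, and a count when it differed by more than 1.5 times. Under the 7 alternatives for normalization, floor and probe sets, the count of members at least 1.5-fold higher was 3 throughout, and none of the 178 values computed under alternatives turned a difference past 1.5-fold around. Of these values 5 moved. With the mean of its probe sets, Socs3 was at -0.13. With the probe set of the largest difference, Socs3 was at -0.56 and Irf8 at -0.22, since their probe sets read in opposite directions. At a 3-fold threshold 0 members were higher. Without a floor the median of the ligands was 0.41, because Ifnb1 and Ifng then entered. Among the members, signal over background limits Socs1, which the stricter floor left below background, and 1 array per genotype limits every value.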

Other observations

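The response element letters were also read across all genes with a promoter window. Of 7478 measured genes with such a window, 312 held the ISRE letters in at least 1 of their windows, and 45 of them, or 14.4%, were at least 1.5-fold higher in Nlrp6-/-, against 5.96% of the 7478. Their median difference was 0.08, against 0.01. The GAS letters were held by 643 genes, of which 46, or 7.15%, were at least 1.5-fold higher, with a median of 0.00. Genes with several starts had more windows to match, and these shares were not tested.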
